A study of Capra hircus with 2 samples.

Results

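The data are small RNA sequences from the mammary gland of Xinong Saanen dairy goats, and the pair of closely related miRNAs miR-103 and miR-107 is described here, 2 of the 346 conserved miRNAs that the study listed. Their members were chosen by sequence: a tag, meaning a distinct read sequence, was taken when at least its first 18 bases were identical to the listed miR-103 and miR-107 from the 5′ end. This gave 251 of 788915 tags in the dry period library (the dry library) and 272 of 1108514 tags in the library from peak lactation (the peak library), or 352 different tags in all. Each library was made from RNA pooled from 3 goats aged 2.5 years, so each stage was represented by 1 library and no spread between animals could be measured. The dry period is the stage in which the gland is not milked, and peak lactation is the stage of highest milk yield. The sample labels attach 75 days after lambing to the dry period and 320 days to peak lactation, while the study's text gives 320 days for the dry period and 75 days for peak lactation. The stages used here are those of the sample titles. Whole gland tissue was used, so fewer cells of a type and less RNA per cell cannot be told apart.

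A miRNA guides a silencing complex to messenger RNAs mainly through its seed, which is formed by bases 2 to 8. miR-103 and miR-107 carry the same seed, and they are processed from hairpins that lie in introns of the pantothenate kinase genes, whose enzymes begin the synthesis of coenzyme A. In the RefSeq goat annotation (ARS1.2), MIR103 lies within the span of PANK2 and MIR107 within that of PANK1. The pair is known for its effects on insulin sensitivity and lipid metabolism and for lowering Dicer, the enzyme that releases miRNAs from their hairpins. For the goat mammary gland, miR-103 has been described as promoting milk fat synthesis.

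The study listed miR-107 as the first 21 bases of miR-103, and both listed sequences are shown here because every count depends on where they stop being alike. Capitals mark the seed.
miR-103: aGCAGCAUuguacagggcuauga
miR-107: aGCAGCAUuguacagggcuau

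In other mammals the mature miR-107 continues past this point with C at base 22, where miR-103 has G (G22C, with miR-103's base first and bases counted from the 5′ end). The study's list ends before that base, so the assignment of C to miR-107 rests on this knowledge and not on a goat sequence. Tags were therefore divided by base 22. Those with G were counted as miR-103 and those with C as miR-107. Those that ended at or before base 21 were kept apart as shared, because no base in them separates the miRNAs. The most frequent tags of each kind are shown to let these classes be seen, with every base from base 22 onward in capitals.
miR-103, 23 nt: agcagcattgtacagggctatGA
miR-103, 22 nt: agcagcattgtacagggctatG
miR-103, 23 nt ending in T: agcagcattgtacagggctatGT
miR-107, 23 nt: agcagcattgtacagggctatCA
miR-107, 22 nt: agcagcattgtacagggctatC
miR-107, 23 nt ending in T: agcagcattgtacagggctatCT
shared, 21 nt: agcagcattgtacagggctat
T at base 22: agcagcattgtacagggctatT
A at base 22: agcagcattgtacagggctatA

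Clean reads numbered 14851375 for the dry library and 15712891 for the peak library, so 3 reads corresponded to 0.202 and 0.191 reads per 1000000 clean reads (RPM). By the matching used here, conserved miRNAs accounted for 61.1% of clean reads from the dry library but for 14.4% from the peak library. This gap sets the scale of every RPM value below. The study's own count of reads matched to miRNA precursors was smaller for the dry library and larger for the peak library. The gap is therefore narrower by the study's count, and all values per conserved miRNA read below rest on the matching used here. Of 257 conserved miRNAs tested per clean read, 67.7% were called lower at peak lactation (absolute log2 fold change above 1, Audic-Claverie p below 0.01), and their median log2 fold change was -1.44. Marker miRNAs of the cell types a gland sample can hold were present in both libraries. The 6 epithelial markers (miR-200a, miR-200b, miR-200c, miR-141, miR-429 and miR-205) summed to 2687 and 1342 RPM, with 3 of 6 called lower. The 5 listed striated muscle markers summed to 7299 and 3874 RPM. Of this, miR-1 alone held 7175 and 3835 RPM and was not called, while the other 4 were called lower. miR-143 and miR-145 of smooth muscle and stroma summed to 11846 and 5199 RPM (1 called lower). The 4 leukocyte markers summed to 481 and 176 RPM (3 called lower), and miR-126 of the endothelium had 113 and 67.6 RPM (not called). The 3 red blood cell markers went the other way, from 110 to 190 RPM, with 2 called higher. No listed marker was at 0 in either library, and the part of these cells in the results below was not tested.

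Per clean read, miR-103 was abundant in both libraries and slightly lower at peak lactation. This direction turns under the 3 other scalings given further on. By C at base 22, miR-107 was far less abundant than miR-103. It was lower at peak lactation per clean read and under each of those scalings, though it was not called per conserved miRNA read. Tags with G at base 22 held 156319 reads in the dry library, or 10526 RPM (Wilson 95% interval 10474 to 10578). In the peak library they held 126852 reads, or 8073 RPM (8029 to 8117). Peak lactation thus had 0.767 times the miR-103 of the dry period. The log2 fold change was -0.38 (95% interval -0.39 to -0.37), and it stayed inside the threshold of 1 although the exact Audic-Claverie probability was far below 0.01 (log10 p = -1079).

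Tags with C at base 22 held 6433 reads in the dry library, or 433 RPM (Wilson 95% interval 423 to 444). In the peak library only 1244 reads remained, or 79.2 RPM (74.9 to 83.7). The log2 fold change of miR-107 was -2.45 (95% interval -2.54 to -2.36), which is 0.183 times the dry period level. It was called lower (exact Audic-Claverie log10 p = -900.5), as were 67.7% of the tested conserved miRNAs, so the call itself does not set miR-107 apart. Both probabilities compare these libraries and not the stages, and the intervals cover counting error only.

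**Figure D1:**
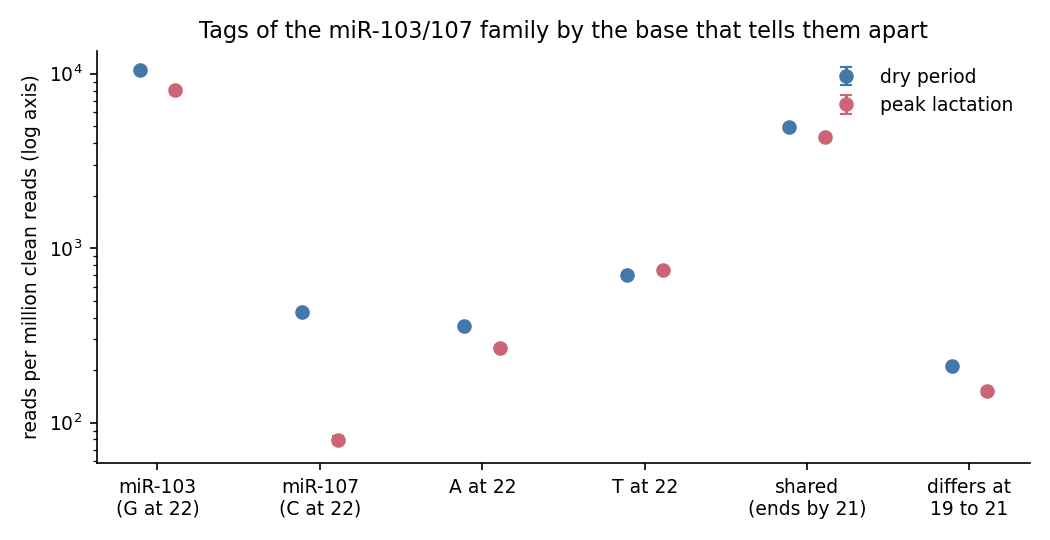
RPM (log axis) of the 6 classes of tags of the pair, in the dry library (blue) and the peak library (red); points are single libraries and bars are Wilson 95% intervals of the count, mostly smaller than the points. miR-107 moved from 433 to 79.2 RPM, whereas miR-103 lay at 10526 and 8073 RPM and the shared tags at 4956 and 4345 RPM.

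The ratio of the miRNAs within a library does not depend on how the libraries are scaled, and it moved clearly. There were 24.3 reads of miR-103 for each read of miR-107 in the dry library and 102 in the peak library. In shares of the reads that tell them apart, miR-107 made up 3.95% (Wilson 95% interval 3.86 to 4.05%) in the dry period and 0.971% (0.919 to 1.03%) at peak lactation, over 162752 and 128096 reads. The odds of miR-103 against miR-107 were 4.20 times higher at peak lactation (95% interval 3.95 to 4.46, log2 odds ratio 2.07). With 1 library per stage, no spread between preparations or animals stands behind this interval.

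The shift was found at every 3′ end that both miRNAs had in number. Among tags that ended with base 22 itself, the ratio of miR-103 to miR-107 went from 24.2 (35809 and 1478 reads) to 99.9 (30568 and 306 reads). Among 23-nt tags with A at base 23 it went from 24.8 (101328 and 4082 reads) to 110 (78556 and 715 reads). Where T stood at base 23 it went from 15.0 (10981 and 731 reads) to 58.7 (11152 and 190 reads). The log2 odds ratios of these 3 ends were 2.04 (95% interval 1.86 to 2.22), 2.15 (2.03 to 2.26) and 1.97 (1.73 to 2.20), and their intervals overlapped. The longer ends AT and AA after base 22 rested on 51 and 8 or on 18 and 2 reads of miR-107 and had intervals from 1.16 to 3.32 and from 0.57 to 4.79.

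A read of miR-103 in which base 22 was miscalled as C would be counted for miR-107, so the same change was counted at the 6 other G bases of the 23-nt miR-103 tag. C stood in place of G there in 0.0118 to 0.0316 per 100 reads of the tag in the dry library and in 0.00891 to 0.0242 in the peak library. At base 22 the values were 4.03 and 0.910 per 100, which are 128 and 37.6 times the highest of the other bases. At the highest rate, 49.4 of the 6433 reads and 30.7 of the 1244 reads would be miscalls. Taking these reads away, which was decided once the data had been seen, gave a log2 fold change of -2.48 for miR-107. This rate covers miscalls as frequent as at the 6 other G bases and no other source of C. In tags otherwise identical to the 23-nt miR-103 tag, A at base 22 held 847 reads in the dry library and 646 in the peak library. T held 1014 and 1044 reads there, and C held 4082 and 715. A and T were assigned to neither miRNA. How many reads with C had the same origin as those with A or T was not tested.

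**Figure D2:**
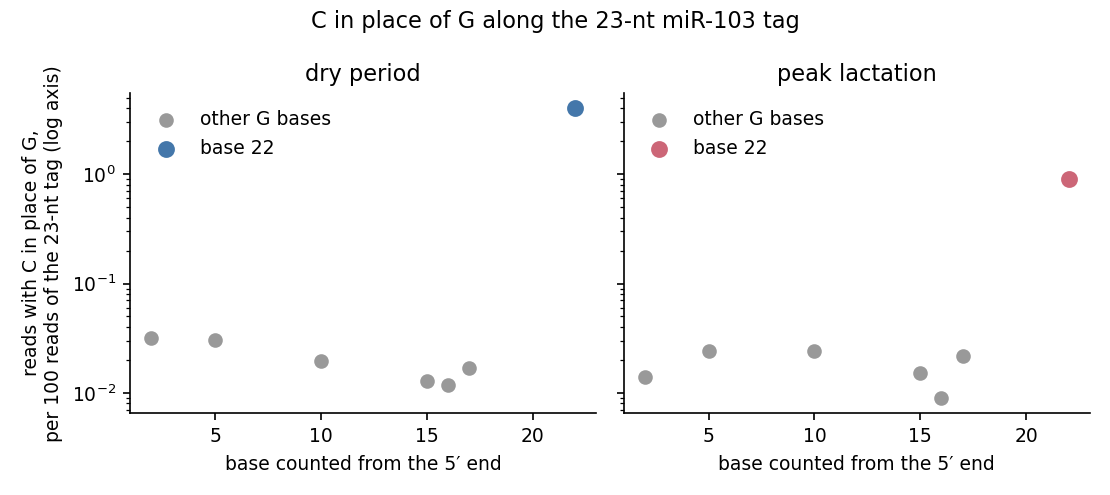
Reads with C in place of G per 100 reads of the 23-nt miR-103 tag (log axis) against the base counted from the 5′ end, for the dry library (left) and the peak library (right); grey points are the 6 other G bases and the coloured point is base 22. Base 22 stood at 4.03 and 0.910, and no grey point was above 0.0316.

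Shared tags could be given to neither miRNA, and they held 73598 reads in the dry library and 68276 in the peak library, or 4956 and 4345 RPM. Their log2 fold change was -0.19 (95% interval -0.20 to -0.17), nearer to that of miR-103 than to that of miR-107. The 21-nt tag alone held 68038 and 63040 of these reads, and 20-nt tags held 4562 and 4202. Tags of 18 nt (503 and 531 reads) and 19 nt (495 and 503 reads) were few. The sequence listed for miR-107 is the 21-nt shared tag, so a count by that sequence measures shared reads.

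When a tag was counted for the listed miRNA with the longest identical stretch, miR-107 received 98880 reads in the dry library and 87876 in the peak library. Of these, only 6.51% and 1.42% carried C at base 22, while 74.4% and 77.7% were shared tags. The remainder had A or T at base 22 (15.9% and 18.2%) or left the listed sequence at bases 19 to 21 (3.16% and 2.73%). By the longest stretch, miR-107 ranked 15th and 4th among the 346 listed miRNAs and had a log2 fold change of -0.25 (95% interval -0.26 to -0.24). By C at base 22 it would rank 56th and 72nd beside the other 344, and miR-103 by G at base 22 would rank 6th and 3rd. These ranks leave out the shared tags of the pair, whereas the other miRNAs are counted with all their tags. Per clean read, neither member was called by the longest stretch, against 67.7% of all miRNAs tested called lower, and miR-107 was called lower by C at base 22. Per conserved miRNA read, the longest stretch gave 1.75 for miR-103 and 1.83 for miR-107, both called higher, whereas C at base 22 gave -0.37.

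**Figure D3:**
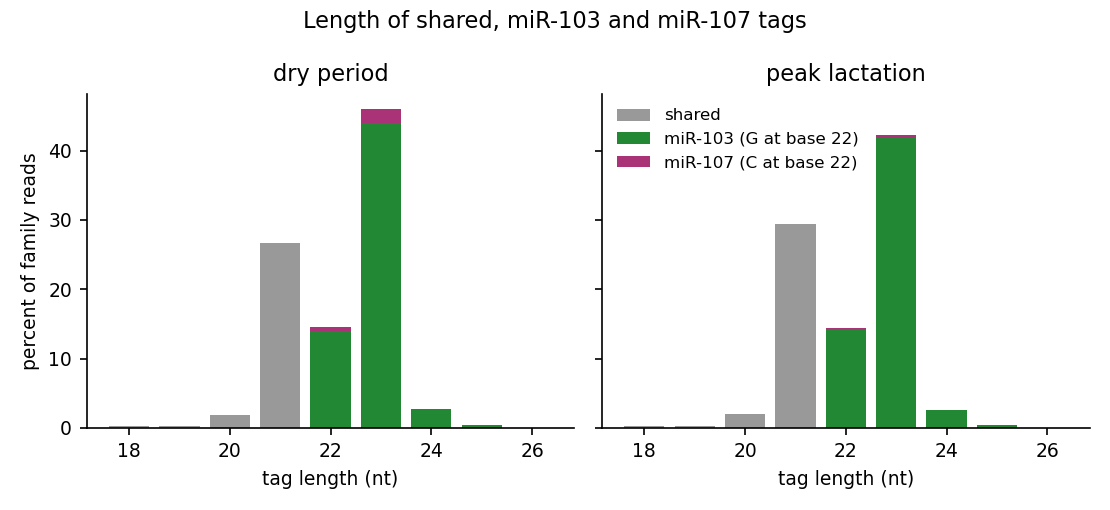
Percent of reads of the pair by tag length in nt, in the dry library (left) and the peak library (right), stacked for shared tags (grey), miR-103 (green) and miR-107 (purple); tags with A or T at base 22, tags that differ at bases 19 to 21 and lengths over 26 nt are not drawn. The 21-nt peak consists of shared tags, and miR-107 is a thin layer on the 22-nt and 23-nt bars that is thinner at peak lactation.

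Among reads that reached base 22, both miRNAs ended mostly at base 23, and miR-103 ran past base 23 more often. Reads ending at base 23 were 71.9% and 70.8% of miR-103 and 75.5% and 73.7% of miR-107. Shared tags (73598 and 68276 reads) end before base 22 and belong to neither class. The shares and mean lengths given here leave them out, so they do not describe all reads of either miRNA. Of the miR-103 reads, 22.9% ended at base 22 in the dry period against 24.1% at peak lactation, and for miR-107 the shares were 22.98% and 24.6%, with overlapping Wilson 95% intervals between the miRNAs in each library. Reads that ran past base 23 were 5.18% and 5.09% of miR-103 but 1.52% and 1.69% of miR-107, and the intervals of the miRNAs did not overlap in either library. The mean length of miR-103 reads was 22.83 nt in the dry period and 22.82 nt at peak lactation, and that of miR-107 reads was 22.79 and 22.77 nt.

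T in place of A at base 23 (A23T) was found in 10.4% of the longer miR-103 reads in the dry period (Wilson 95% interval 10.2 to 10.6%) against 13.2% at peak lactation (13.0 to 13.4%). For miR-107 the same shares were 15.2% (14.2 to 16.2%) and 21.2% (18.7 to 23.9%). T was thus more frequent at peak lactation in both miRNAs and more frequent in miR-107 than in miR-103 in both libraries, beyond counting error. C or G at base 23 of miR-103 stayed below 0.1%.

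A further T was also more frequent on shared tags. For every 100 reads of the 21-nt shared tag, the separate tag with 1 further T had 11.1 reads in the dry period (7575 beside 68038). At peak lactation it had 13.9 (8752 beside 63040), a ratio of 1.25 (95% interval 1.21 to 1.29). On the 22-nt miR-103 tag the further T gave 30.7 and 36.5 per 100, a ratio of 1.19 (1.15 to 1.23). On the 23-nt miR-103 tag it gave 3.12 and 2.98, a ratio of 0.95 whose interval (0.90 to 1.01) held 1. Over 50 other listed sequences the ratio for a further T had a median of 1.003 and quartiles of 0.84 and 1.08, and 26 of them were higher at peak lactation. A further A was less frequent at peak lactation on the 21-nt shared tag (4.88 and 4.25 per 100, ratio 0.87, 95% interval 0.83 to 0.92), where the other sequences had a median ratio of 1.02. All tags with T at base 22 together were the one class with more RPM at peak lactation, 703 and 747, a log2 difference of 0.09 (95% interval 0.05 to 0.13) that was inside the threshold. Tags with A at base 22 had 356 and 268 RPM. Some of the sequences compared may have T or A as the next base of their hairpin, which was not tested.

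Shared tags made up 28.8% of the reads of the pair from the dry library (Wilson 95% interval 28.7 to 29.0%) but 31.8% of those from the peak library (31.6 to 32.0%), a difference of 2.96 percentage points. Reads of up to 21 nt became more frequent elsewhere as well. Among reads of the other conserved miRNAs they rose from 15.1% to 19.1%, and among all clean reads from 29.1% to 39.8%. The part of these wider differences in the share of shared tags was not tested.

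Tags that began at another base were rare, so nearly all reads carried the listed seed. Tags that started 1 or 2 bases before or after the listed 5′ end, and were identical through base 21, held 1129 reads in the dry library and 722 in the peak library. These were 0.440% (Wilson 95% interval 0.416 to 0.467%) and 0.335% (0.312 to 0.360%) of the reads of the pair with them included. The most frequent one began 2 bases inside and has another seed, which the capitals mark.
shifted by 2 bases, 21 nt: cAGCATTGtacagggctatga
It was counted with 577 reads in the dry period against 328 at peak lactation. The tag shifted by 1 base had 117 and 69 reads.

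Set against the other conserved miRNAs, miR-103 and miR-107 lay on opposite sides of the middle. The log2 fold change of miR-103 was 1.06 above the median of the 257 tested miRNAs (95% counting interval 1.05 to 1.07), and 88.7% of them had a lower value. That of miR-107 differed from the median by -1.01 (-1.10 to -0.93), and 17.9% had a lower value. These distances from the median are the same under every scaling of the libraries, but the sign of the change of miR-103 is not. As a share of conserved miRNA reads, miR-103 made up 1.72% in the dry period against 5.60% at peak lactation, so on that scale it was 3.25 times higher (log2 1.70). miR-107 made up 0.0708% and 0.0549% on the same scale (log2 -0.37). Per conserved miRNA read 33.1% of the tested miRNAs were called higher and 5.84% lower, a tally in which the pair is counted by the longest stretch and both its members are called higher. By base 22, miR-103 would be called higher on that scale and miR-107 would not be called. Under edgeR's TMM factors and DESeq2's size factors miR-103 was at 0.92 and 1.01, and miR-107 at -1.15 and -1.06.

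**Figure D4:**
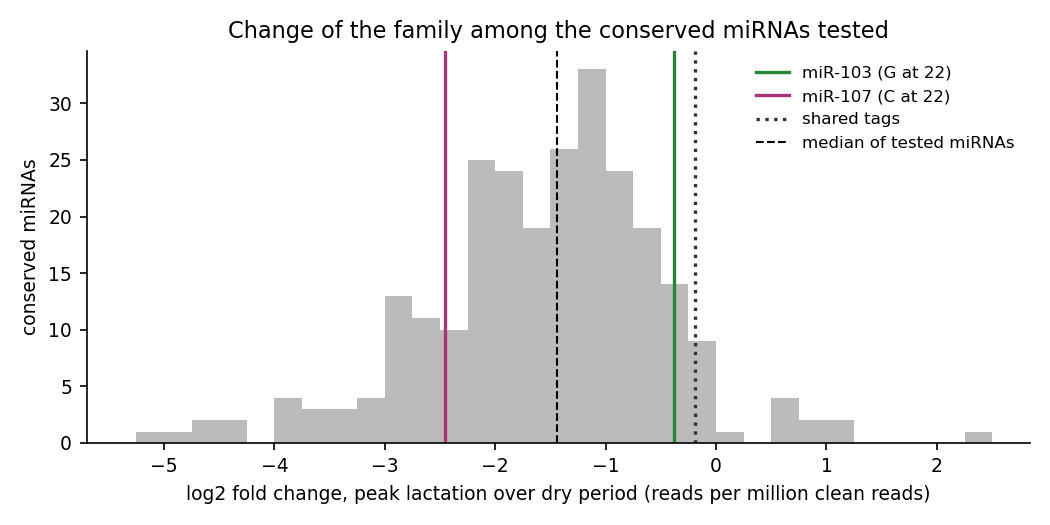
Number of conserved miRNAs by log2 fold change of peak lactation over dry period per clean read, for the 257 tested, with lines at miR-103 (green), miR-107 (purple), the shared tags (dotted) and the median of the tested miRNAs (dashed). miR-103 at -0.38 and the shared tags at -0.19 lie right of the median of -1.44, and miR-107 at -2.45 lies left of it; dividing by conserved miRNA reads would move all values by 2.08 to the right.

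By the rule that names the most similar miRNAs, the 5 of 105 candidates (at least 1000 reads in one library) nearest to miR-103 in log2 fold change were miR-375 (-0.39), miR-200c (-0.45), miR-411 (-0.31), miR-29c (-0.45) and miR-345-3p (-0.30). miR-375 and miR-200c are known from epithelial cells, and they had 4792 and 3879 reads and 7394 and 5725 reads. The other epithelial markers were spread widely, with miR-141 at -0.09, miR-200b at -0.96, miR-205 at -1.25, miR-200a at -1.35 and miR-429 at -1.99, the last 3 called lower. The 5 nearest to miR-107 were miR-199b (-2.50), let-7i (-2.37), miR-199c (-2.58), miR-3432 (-2.59) and miR-2284h (-2.28). miR-199b, known from stromal cells, had 1600 and 299 reads. The markers of smooth muscle and stroma lay apart, with miR-143 at -0.86 (not called) and miR-145 at -2.76 (called lower). The likeness is over 2 libraries only.

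The seed of miR-103 and miR-107 overlaps that of a wider group of miRNAs that hold AGCAGC at base 1 or 2, which is known for members that restrain the cell cycle. By this rule 8 of the 346 listed miRNAs (2.31%) belong to the group, and those other than the pair are shown to compare the place of the motif, which the capitals mark. miR-16a and miR-16b were listed with the same sequence.
miR-103: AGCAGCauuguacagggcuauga
miR-15a: uAGCAGCacauaaugguuugu
miR-15b: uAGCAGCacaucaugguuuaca
miR-16a and miR-16b: uAGCAGCacguaaauauugg
miR-424: cAGCAGCaauucauguuuuga
miR-497: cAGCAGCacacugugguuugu

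The motif begins at base 1 in miR-103 and at base 2 in the others, so the seeds of the pair are shifted by 1 base against theirs. Only the pair had its seed among all listed miRNAs. All 6 of the other listed names were called lower at peak lactation per clean read, beside 67.7% of all tested, with a median log2 fold change of -1.82 beside -1.44. miR-16a and miR-16b share 1 sequence, which had 10870 and 3697 reads (-1.64). miR-497 had 2404 and 558 reads (-2.19), and miR-15a had 1824 and 431 reads (-2.16). miR-15b had 856 and 227 reads (-1.996), and miR-424 had 1247 and 555 reads (-1.25). None of the 6 was called in either direction per conserved miRNA read or under the TMM and DESeq2 factors. Most of the 257 tested miRNAs were not called under these scalings either. Those called lower and higher were 15 and 85 per conserved miRNA read, 48 and 22 under TMM, and 42 and 28 under DESeq2. Counted over the 5 distinct sequences, the others held 17201 and 5468 reads, and miR-103 alone held 9.09 times their reads in the dry period and 23.2 times at peak lactation. miR-107 at -2.45 lay below all of them and miR-103 at -0.38 above all of them.

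**Figure D5:**
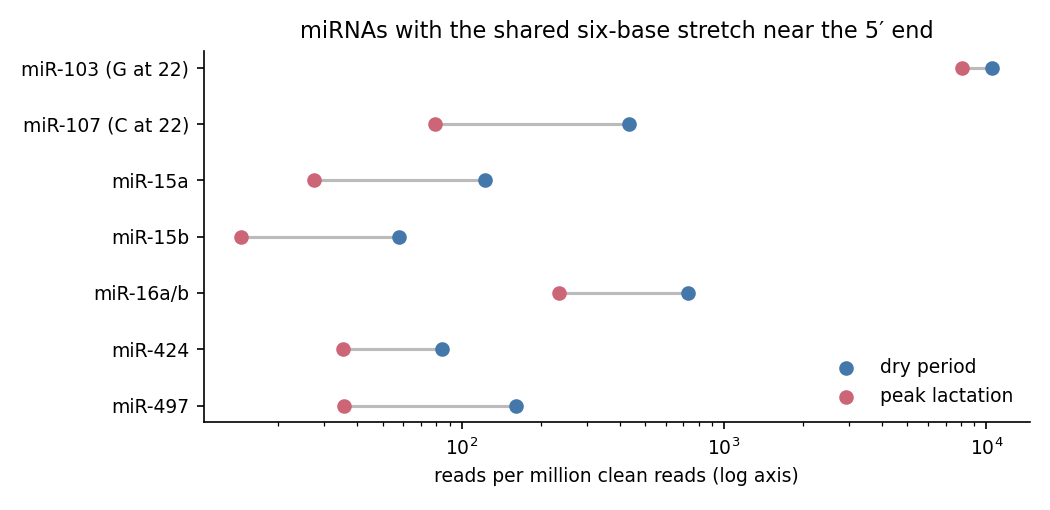
RPM (log axis) of miR-103, miR-107 and the other miRNAs of the group in the dry library (blue) and the peak library (red); a grey line joins the values of 1 miRNA. miR-103 has the highest level in both libraries and the shortest line, and all of them, miR-103 included, lie lower at peak lactation than in the dry period.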

How the data were processed

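The authors pooled RNA of 3 goats per stage, sequenced small RNA on the Solexa platform (base calling with CASAVA per the labels), discarded reads of low quality, with adaptor faults, without an insert, of poly(A) or shorter than 18 nt, and merged equal reads into tags. The deposited values are counts of clean reads per tag, neither aligned nor normalized. The authors mapped clean reads to the bovine genome with SOAP for annotation; the tags used here sum to all clean reads and carry no positions, and that genome's build is not given in the sources used here.

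Tags were classed by bases 1 to 22 as described above. Levels are per clean read of each library. Log2 fold changes are peak lactation over dry period, with Wilson 95% intervals of the split of reads and the study's Audic-Claverie probability (two-sided, from whichever tail was smaller). A miRNA needed 1 RPM in at least one library, and a count of 0 was set to 0.01 RPM. Other listed miRNAs were counted for the sequence matching furthest from its first base, over 18 nt or more, ties for each. Odds ratios have Wald intervals. With 1 library per stage, edgeR's replicated test could not be fitted. TMM factors (edgeR 4.0.16), size factors (DESeq2 1.42.0, R 4.3.3), other matching rules, a thinned library and a binomial test were tried as alternatives. The classing and the probability were checked on simulated data, with scipy 1.17.1, numpy 2.4.6 and Python 3.11.15, and figures were drawn with matplotlib 3.10.9.

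The text names the pair, its most frequent tags (drawn from the 10 with the most reads and the 3 leading tags with C at base 22), the AGCAGC group, the 5 nearest miRNAs and the marker miRNAs. The leading C tags, the ratios by 3′ end, the miscall count, the tags shifted at the 5′ end and the comparison of a further T or A (listed sequences of at least 1000 reads in both libraries, and at least 10 reads with the further base) were added after values were seen. Members and lists were chosen with earlier results of these data known. Hairpins and opposite arms were not analysed here.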

Additional observations from a re-analysis of the deposited data

How the results depend on the processing

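The scale of the libraries decided the direction of miR-103. Per conserved miRNA read, the log2 fold change of miR-103 was 1.70, of the shared tags 1.89 and of the whole family 1.75; under TMM factors they were 0.92, 1.11 and 0.97, and under DESeq2 size factors 1.01, 1.21 and 1.07. miR-107 counted by the longest stretch, at -0.25 per clean read, was at 1.83, 1.05 and 1.14 under these scalings, which were tried for it after seeing the data. The median of the tested miRNAs went from -1.44 to 0.64, -0.14 and -0.04 under them. miR-107 kept its direction, but at -0.37 per conserved miRNA read it was no longer called. Dividing by the study's own totals of reads matched to miRNA precursors was not tried. Those totals lie closer together than the conserved miRNA reads counted here, so they would move the values by less, and calls could differ. The tested miRNAs called lower and higher went from 174 and 3 to 15 and 85 per conserved miRNA read, 48 and 22 under TMM and 42 and 28 under DESeq2, and the other members of the AGCAGC group called lower went from 6 to 0 under each.

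Giving the shared tags to both miRNAs moved miR-107 to -0.28 and dividing them equally to -0.37, both without a call; this follows from their number, since they outnumber C tags. Dividing them in the ratio of the told-apart tags left it at -2.37. With 23-nt tags ending in A alone, the miR-103 share at peak lactation was 99.10% in place of 99.03%. In 59 of 84 combinations of result and alternative the direction and the side of the threshold stayed, or the value moved by less than its limit. The direction reversed in 12, all of them under another scaling of the libraries. The value moved beyond its limit in 10, and a call was lost in 3. The combinations rest on the same reads and are not independent.

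No replicate could be left out and no paired analysis was possible because each stage has 1 library. The assignment of C at base 22 to miR-107 was not checked against a goat hairpin.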

Other observations

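Among the 50 other listed miRNAs that reached 10000 reads in either library, a limit chosen after seeing the data, the log2 fold change per clean read ran from -3.79 to 0.54 with a median of -1.41. Only miR-146b (19310 and 20046 reads, -0.03) and miR-148a (17506 and 27012 reads, 0.54) were above miR-103 at -0.38, while 39 were above miR-107 at -2.45. These places do not depend on the scale of the libraries.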
